A study of Arabidopsis thaliana with 35 samples.

Results

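The response to the synthetic auxin 2,4-D was compared between wild-type (WT) and *clf swn* (*cs*) Arabidopsis seedlings, as the difference between the change in *cs* and the change in WT. This genotype by 2,4-D interaction was computed for every gene from 12 of the 35 libraries of the study, 3 for each of 4 groups. The seedlings were 14 days old and kept whole for 55 h on medium with DMSO (mock, WT-M and *cs*-M) or with 5 µM 2,4-D (WT-A and *cs*-A). After that time roots, cotyledons and true leaves were removed, and RNA was taken from the shoot apical meristem region with the leaf bases that hold the axillary meristems. WT was Col-0. The *clf swn* plants carried the insertion alleles *clf-29* and *swn-3* and were selected as seedlings from a segregating parent, since the double mutant sets no seed. The same interaction was also measured in 12 other libraries from explants wounded by a cut through the hypocotyl (W and WA, with and without 2,4-D), and the genotypes were compared before any treatment in 11 libraries (ctrl).

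CLF and SWN are histone methyltransferases of Polycomb repressive complex 2 (PRC2), which places the repressive mark H3K27me3 on the chromatin of developmental genes. Auxin acts by joining the TIR1/AFB receptors to the Aux/IAA repressors, whose breakdown frees the auxin response factors to switch on their targets. Among these targets are the *Aux/IAA* genes themselves, the *GH3* enzymes that inactivate auxin, and the *LBD* factors of lateral roots and callus. At herbicidal strength 2,4-D is also known to drive ethylene and abscisic acid synthesis.

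The libraries held 11436071 to 18094983 counted reads, and 3 counts, taken as the floor of detection, corresponded to 0.166 to 0.262 CPM (counts scaled to the library's own total, as reads per 1e6). *CLF* was at 39.6 ± 0.881 CPM (SD, n = 3) in WT-M and 39.3 ± 1.51 CPM in WT-A, but at 1.296 ± 0.338 CPM in *cs*-M and 1.42 ± 0.186 CPM in *cs*-A. *SWN* was lower in *cs* as well, with 26.0 ± 1.90 CPM in *cs*-M against 54.3 ± 1.82 CPM in WT-M. All 12 libraries thus matched their genotype labels. The shoot meristem genes *STM* and *KNAT1* were present in all groups, with *STM* between 75.8 and 127 CPM on average. The other shoot meristem markers were lower. Group means were 0.913 to 22.1 CPM for *CUC2*, 0.715 to 32.5 CPM for *CUC3*, 0.0466 to 2.38 CPM for *WUS* and 0.0 to 0.349 CPM for *CLV3*, each lowest in WT-A. Of the 11 root markers *COBL9* and *EXPA7* averaged under 0.1 CPM in each group. *PIN2* averaged 1.35 to 12.8 CPM, *RHD6* up to 24.5 CPM (WT-A) and *BGLU23* 188 to 1096 CPM. In bulk tissue a smaller share of a cell type and less RNA per cell cannot be told apart, and this holds for each gene group below.

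The loss of CLF and SWN changed the response to 2,4-D of a large part of the transcriptome, and fewer genes responded in *cs* than in WT. Of 21115 genes tested with edgeR's quasi-likelihood test, 5054 had a positive interaction (a more positive change in *cs* than in WT) and 4398 a negative one at an adjusted p under 0.05. This is 44.8% of the genes tested, 23.9% positive and 20.8% negative. These shares are the background for the counts of each gene list below. In WT 4156 genes were up-regulated and 4370 down-regulated by 2,4-D, where a call also needed an absolute log2 change of 0.6 or more (19.7% and 20.7%, together 40.4% of genes). In *cs* 1229 genes were up- and 1340 down-regulated (5.82% and 6.35%), 12.2% of genes. Across the 8526 genes called in WT the slope of the *cs* on the WT log2 fold change was 0.190, and 92.3% of them had the smaller change in *cs*. Choosing genes by their call in WT favours a smaller change in *cs*. Among genes chosen by their call in *cs* the slope was 0.467, and the median log2 change was 0.52 in WT and 1.08 in *cs* for the 1229 induced genes and -0.83 and -1.15 for the 1340 repressed ones.

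In each direction the most frequent class was a response called in WT alone, 54.0% of positive and 52.7% of negative interactions. Among the 5054 positive interactions, 2728 genes were repressed in WT and not called in *cs*, 332 were induced in *cs* alone, and 163 were repressed in WT and induced in *cs*. Among the 4398 negative interactions, 2316 genes were induced in WT alone, 247 were repressed in *cs* alone, and 182 were induced in WT and repressed in *cs*. A further 1481 positive and 1471 negative interactions concerned genes whose response was called in neither genotype. In both genotypes 558 genes were induced, which was 45.4% of the genes induced in *cs* and 13.4% of those induced in WT.

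**Figure D1:**
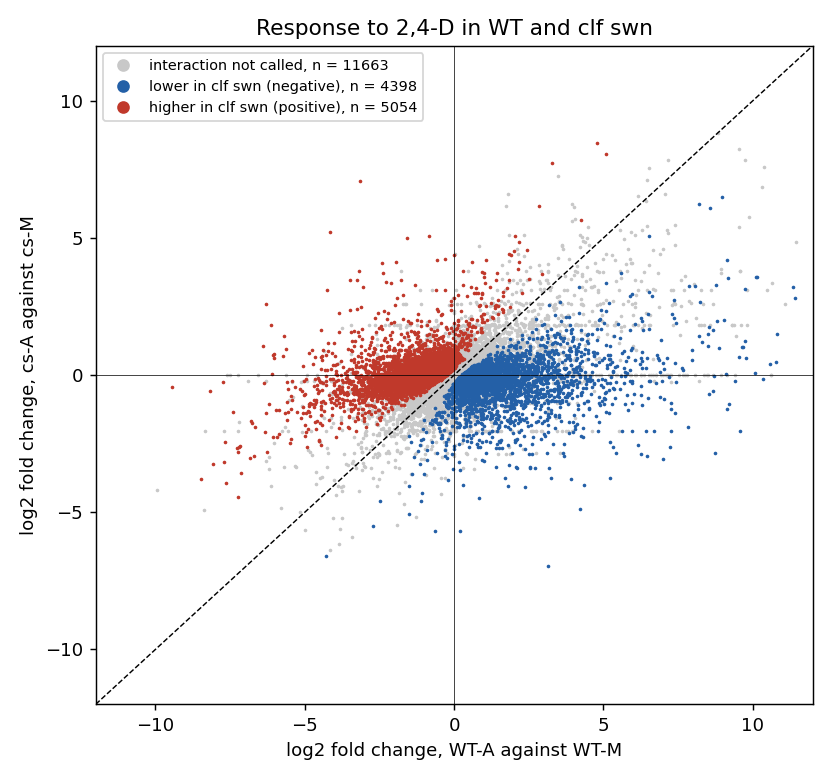
Log2 fold change of each of 21115 genes after 2,4-D in WT (x axis) and in *cs* (y axis), with 1 point per gene. Red and blue points are the 5054 positive and 4398 negative interactions, grey points the other genes, and the dashed line marks equal responses. A response called in WT alone made up 54.0% of the red and 52.7% of the blue points. The slope of 0.190 was taken over the 8526 genes called in WT.

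To show the promoters of genes with different response patterns, the 250 bases upstream of the annotated gene start were read from the RefSeq assembly TAIR10.1, 5′ to 3′ on the gene's strand. All of these genes changed in both genotypes, unlike the most frequent class, a response called in WT alone. *GH3.2* had a larger induction in *cs*, *ACS8* a smaller one, and *RCA* a repression in WT that was weaker in *cs*. Capitals mark the auxin response element TGTCTC (or its reverse complement) in the windows of *GH3.2* and *ACS8* and the I-box GATAAG, a motif known from light-regulated promoters, in that of *RCA*. The windows were chr4:17579368-17579617 (plus strand), chr4:17751829-17752078 (plus strand) and chr2:16573693-16573942 (minus strand).
GH3.2: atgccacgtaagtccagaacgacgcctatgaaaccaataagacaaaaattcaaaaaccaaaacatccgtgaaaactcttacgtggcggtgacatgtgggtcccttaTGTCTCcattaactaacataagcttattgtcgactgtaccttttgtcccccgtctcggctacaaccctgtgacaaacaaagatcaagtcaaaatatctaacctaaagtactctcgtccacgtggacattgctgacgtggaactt
ACS8: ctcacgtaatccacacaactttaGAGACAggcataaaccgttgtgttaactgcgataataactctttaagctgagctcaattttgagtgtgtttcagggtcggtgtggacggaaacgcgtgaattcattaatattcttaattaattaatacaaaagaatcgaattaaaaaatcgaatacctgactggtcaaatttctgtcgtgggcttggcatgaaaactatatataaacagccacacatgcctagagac
RCA: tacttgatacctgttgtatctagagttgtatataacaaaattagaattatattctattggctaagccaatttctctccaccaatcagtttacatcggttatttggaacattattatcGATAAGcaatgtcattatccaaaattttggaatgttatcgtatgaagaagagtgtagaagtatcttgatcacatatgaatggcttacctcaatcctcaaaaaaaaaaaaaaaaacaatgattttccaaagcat

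The windows shown were picked among those with a match, so that both *GH3.2* and *ACS8* hold TGTCTC is not a result. Their interactions had opposite signs. TGTCTC was found, on either strand, in 10.7% of the 20978 windows of all genes tested, in 11.1% of those with a positive and in 10.7% of those with a negative interaction, and in 8 of 28 *Aux/IAA* windows. It also stood in 3 of 10 *GH3* and *DAO*, 4 of 12 ethylene synthesis and 7 of 64 *SAUR* windows. GATAAG occurred in 12.3% of all windows and in 11 of 40 windows of the photosynthesis genes (27.5%). Its share was 31.6% in the jasmonate and 33.3% in the ethylene synthesis list, and 3.85% in the *XTH* family. The W-box, TTGACC or TTGACT on either strand, which WRKY factors bind, occurred in 28.2% of all windows, in 33.3% of those of the genes induced in WT only and in 23.8% of those of the genes repressed in WT only. The W-box stood in 3 of 13 windows of the salicylic acid and in 15 of 27 of the tau glutathione transferase list. These shares describe letters in a window and were not tested.

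Most *Aux/IAA* genes responded to 2,4-D in both genotypes. Of 28 *Aux/IAA* genes tested, 20 were up-regulated by 2,4-D in WT and 22 in *cs*, against 19.7% and 5.82% of all genes. Their interactions were split, with 7 positive and 6 negative, and the median was 0.11 on the log2 scale, or -0.04 with levels under the floor set to the floor, beside 0.01 over all genes. *IAA17*, an auxin-inducible repressor, measured 8.03, 7.52 and 6.90 CPM in WT-M and 155, 77.1 and 115 CPM in WT-A, but 23.5, 28.0 and 28.9 CPM in *cs*-M and 11.9, 12.2 and 21.8 CPM in *cs*-A. It was induced in every WT-A library and fell in *cs*, with no overlap between mock and treated libraries in either genotype (interaction -4.76 ± 0.36, SE, adjusted p = 3.8e-11). *IAA11* rose in both genotypes, by 2.88 in WT and 0.72 in *cs* on the log2 scale (interaction -2.16 ± 0.21, adjusted p = 2.1e-09). *IAA27* rose in *cs* alone, from 81.1 ± 3.44 to 151 ± 12.6 CPM, and its interaction was 1.38 ± 0.15 (adjusted p = 3e-08).

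The auxin-inactivating enzymes were induced in both genotypes, and the sign of the interaction varied among them. Of 10 *GH3* and *DAO* genes, 8 were up-regulated in each genotype, 3 had a positive and 2 a negative interaction (1 negative without *cs*-M replicate 2, WT-A replicate 3 or WT-M replicate 3). *GH3.2*, an enzyme that conjugates auxin to amino acids, measured 25.1, 20.8 and 16.1 CPM in WT-M and 734, 591 and 816 CPM in WT-A. In *cs*-M it was at 6.54, 7.07 and 5.07 CPM and in *cs*-A at 2096, 1452 and 1528 CPM, so that *cs* started below WT and ended above it without overlap. The increase was 34.3-fold in WT and 267-fold in *cs* (interaction 2.96 ± 0.29, adjusted p = 2.9e-09). *GH3.4* rose from 0.455 ± 0.274 to 12.9 ± 2.41 CPM in WT and, from under the floor, at least 130-fold to 31.3 ± 8.72 CPM in *cs* (adjusted p of the interaction 0.0003). *GH3.1* went the other way, with 156 ± 13.5 CPM in WT-A and 28.9 ± 4.98 CPM in *cs*-A (-1.96 ± 0.67, adjusted p = 0.018), a call that did not hold without *cs*-M replicate 2 (-1.29, adjusted p = 0.25).

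Of 15 genes of the auxin transport list, 8 had a positive and 4 a negative interaction, against 23.9% and 20.8% of all genes. In WT 7 were up-regulated and in *cs* 9, against 19.7% and 5.82% of all genes. *PIN6*, a member of the PIN carrier family, measured 21.7, 22.7 and 23.9 CPM in WT-M and 7.63, 11.7 and 10.2 CPM in WT-A. In *cs* it rose from 14.9, 13.6 and 13.9 CPM to 58.3, 64.7 and 76.0 CPM. It fell 2.31-fold in WT and rose 4.64-fold in *cs*, with no overlap between mock and treated libraries (3.42 ± 0.22, adjusted p = 5.2e-12). *LAX1*, an auxin influx carrier, likewise fell in WT, from 51.3 ± 9.95 to 28.6 ± 6.15 CPM, and rose in *cs*, from 41.6 ± 2.73 to 166 ± 12.6 CPM (2.82 ± 0.28, adjusted p = 3e-09). The efflux carrier gene *PIN3* was up-regulated in both, 1.81-fold in WT and 5.82-fold in *cs* (1.68 ± 0.24, adjusted p = 2e-06), with 94.3 ± 6.66 CPM in *cs*-A and 137 ± 27.6 CPM in WT-M.

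Of 9 auxin synthesis genes 6 were down-regulated in WT and 4 in *cs*, and of 6 receptor genes 2 and 0. Over all genes 20.7% were down-regulated in WT and 6.35% in *cs*. In the synthesis list 5 of 9 genes had a positive interaction and 0 a negative one at the adjusted p of edgeR. Over all genes these shares were 23.9% and 20.8%. The monooxygenase gene *YUC6* fell at least 17.8-fold in WT, from 3.66 ± 0.309 CPM to below the floor, and measured 1.31 ± 0.154 CPM in *cs*-M and 2.11 ± 0.894 CPM in *cs*-A (adjusted p = 2.2e-09). *TAR2*, an aminotransferase that makes the precursor used by the YUC enzymes, fell 3.47-fold in WT and measured 24.6 ± 3.37 and 31.0 ± 2.87 CPM in *cs*-M and *cs*-A (2.11 ± 0.29, adjusted p = 9.1e-07). Of 6 receptor genes 4 had a positive interaction, against 23.9% of all genes. *TIR1* measured 199, 202 and 189 CPM in WT-M and 86.5, 85.6 and 83.7 CPM in WT-A, and stayed between 109 and 143 CPM in all 6 *cs* libraries (1.07 ± 0.19, adjusted p = 5e-05).

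Of 8 *LBD* genes tested, 6 were up-regulated in WT and 3 in *cs*, against 19.7% and 5.82% of all genes, and 3 had a negative interaction. *LBD16* was under the floor in all WT-M libraries and reached 36.8, 35.8 and 39.9 CPM in WT-A, at least 186-fold higher. In *cs* it rose 9.57-fold, from 1.78, 1.89 and 1.92 CPM to 20.11, 16.8 and 17.5 CPM. It was detected in *cs* mock tissue and lay below WT after treatment, with no overlap (adjusted p = 5e-09). *LBD18* rose 47.6-fold in WT and 13.1-fold in *cs* (-1.86 ± 0.46, adjusted p = 0.0015). Without *cs*-M replicate 1 its interaction was -1.48 with an adjusted p of 0.066, and the list kept 1 negative call. The third, *LBD31*, was below 1.5 CPM in every library and lost its call in 9 of the other fits. Over all fits the list had between 0 and 5 negative calls. *LBD16*, *LBD18* and *LBD31* are all left out where at least 10 counts are required in every library.

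Root patterning genes were mostly up-regulated by 2,4-D in both genotypes, and several started higher in *cs*. Of 19 root patterning genes, 13 were up-regulated in WT and 11 in *cs*, against 19.7% and 5.82% of all genes. A negative interaction was called in 9 and a positive one in 3, against 20.8% and 23.9% of all genes. *BBM*, an AP2 factor of embryos and root tips, was under the floor in WT-M and reached 8.71, 4.94 and 4.21 CPM in WT-A, at least 29.5-fold higher. In *cs* it measured 10.9, 15.7 and 17.6 CPM in mock tissue and 13.6, 29.6 and 31.0 CPM after 2,4-D, where the groups overlapped (adjusted p of the interaction 1.8e-07). The related *PLT3* rose 4.31-fold in WT to 100.3 ± 12.9 CPM and stood at 68.8 ± 2.47 CPM in *cs*-M and 104 ± 13.4 CPM in *cs*-A (-1.53 ± 0.16, adjusted p = 1.5e-08). *PLT7* rose 2.74-fold in WT, with 38.6 ± 0.367 CPM in *cs*-M and 27.8 ± 6.20 CPM in *cs*-A (-1.95 ± 0.26, adjusted p = 6e-07). Exons of *PLT3* overlap those of an antisense neighbour by 14.7%, and the library kit does not mark the strand.

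Of 12 embryo regulators 3 had a positive and 2 a negative interaction, shares near the 23.9% and 20.8% of all genes. *LEC1*, a master regulator of embryogenesis, had 0 counts in WT-M, 0.298 ± 0.0827 CPM in WT-A, 2.37 ± 0.386 CPM in *cs*-M and 3.14 ± 0.672 CPM in *cs*-A. Its interaction was negative (adjusted p = 0.002 in edgeR's test) although *cs* lay above WT. This call rests on 5, 5 and 3 counts in the WT-A libraries, near the floor of 3. *WOX9* fell in WT and in *cs*, by 3.26 and 0.70 on the log2 scale, from 1.84 ± 0.483 CPM in WT-M and 51.8 ± 6.25 CPM in *cs*-M (2.56 ± 0.38, adjusted p = 2.6e-06). *WRI1*, a regulator of seed oil synthesis, fell 1.72-fold in WT and measured 56.4 ± 3.46 and 62.6 ± 8.81 CPM in *cs*-M and *cs*-A (0.92 ± 0.20, adjusted p = 0.0004). Of 16 seed storage genes only 1, the oleosin gene *OLEO4*, had an interaction (2.26 ± 0.44, adjusted p = 0.00011), and 2 had one without *cs*-A replicate 1, WT-A replicate 3, WT-M replicate 1 or WT-M replicate 3. The other oleosin genes *OLEO5* and *OLEO1* were at 1615 ± 177 and 2537 ± 598 CPM in *cs*-M and at 2176 ± 497 and 2358 ± 553 CPM in *cs*-A, and under 7 CPM in every WT library, with interactions of 0.66 ± 0.28 and 0.62 ± 0.45 that did not pass (adjusted p = 0.057 and 0.27).

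Of the shoot and floral regulators 9 of 17 and 10 of 19 were down-regulated by 2,4-D in WT, where 20.7% of all genes were, and 4 and 1 in *cs*, where 6.35% were. Of 17 shoot meristem and boundary genes 8 had a positive and 3 a negative interaction, and of 19 floral regulators 10 and 2 (1 negative without WT-A replicate 1, WT-M replicate 1 or WT-M replicate 2). *AS1*, a MYB factor of leaf initiation, measured 126, 126 and 127 CPM in WT-M and 36.8, 30.1 and 32.6 CPM in WT-A, and 122, 100.2 and 116 CPM in *cs*-M and 153, 168 and 167 CPM in *cs*-A (2.45 ± 0.14, adjusted p = 6.4e-13). It thus fell in WT and was higher in every *cs*-A than in every *cs*-M library, although its *cs* change of 0.51 missed the fold minimum, and 17.2% of its exon bases overlap an antisense neighbour. The stem cell receptor kinase gene *CLV1* fell 4.47-fold in WT and stood at 64.5 ± 10.6 and 51.2 ± 1.90 CPM in *cs* (1.81 ± 0.20, adjusted p = 3.2e-08). The boundary gene *CUC2* fell 4.17-fold in WT and stood at 22.1 ± 2.28 and 16.9 ± 0.416 CPM in *cs* (1.66 ± 0.29, adjusted p = 3.5e-05). *WUS*, the organiser of the stem cell niche, fell at least 3.06-fold in WT and measured 1.21 ± 0.141 CPM in *cs*-M and 2.38 ± 0.733 CPM in *cs*-A (adjusted p = 0.0001).

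*YAB5*, a YABBY factor of the lower leaf side, turned from repression to induction. It measured 12.7, 11.8 and 12.4 CPM in WT-M and 2.302, 1.65 and 3.12 CPM in WT-A. In *cs*-M it was at 1.63, 2.88 and 2.62 CPM and in *cs*-A at 27.6, 32.1 and 35.1 CPM. The treated *cs* libraries were above all others, with a 5.22-fold decrease in WT and a 13.2-fold increase in *cs* (6.10 ± 0.34, adjusted p = 4.5e-13). Its relative *CRABS CLAW*, a regulator of carpels, was at 0.565 ± 0.133 CPM in WT-M, had 0 counts in WT-A, and rose from 50.1 ± 2.05 to 84.2 ± 2.56 CPM in *cs* (adjusted p = 2e-05). The floral repressor *SVP* fell 1.60-fold in WT and rose 1.66-fold in *cs* (1.41 ± 0.17, adjusted p = 1.1e-07). *AGL24* fell in WT from 104 ± 0.522 to 61.7 ± 12.7 CPM (interaction 0.95 ± 0.15, adjusted p = 8.3e-06), and *SEP4* rose 1.78-fold in *cs* (1.43 ± 0.28, adjusted p = 0.00014). Both are MADS-box genes.

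**Figure D2:**
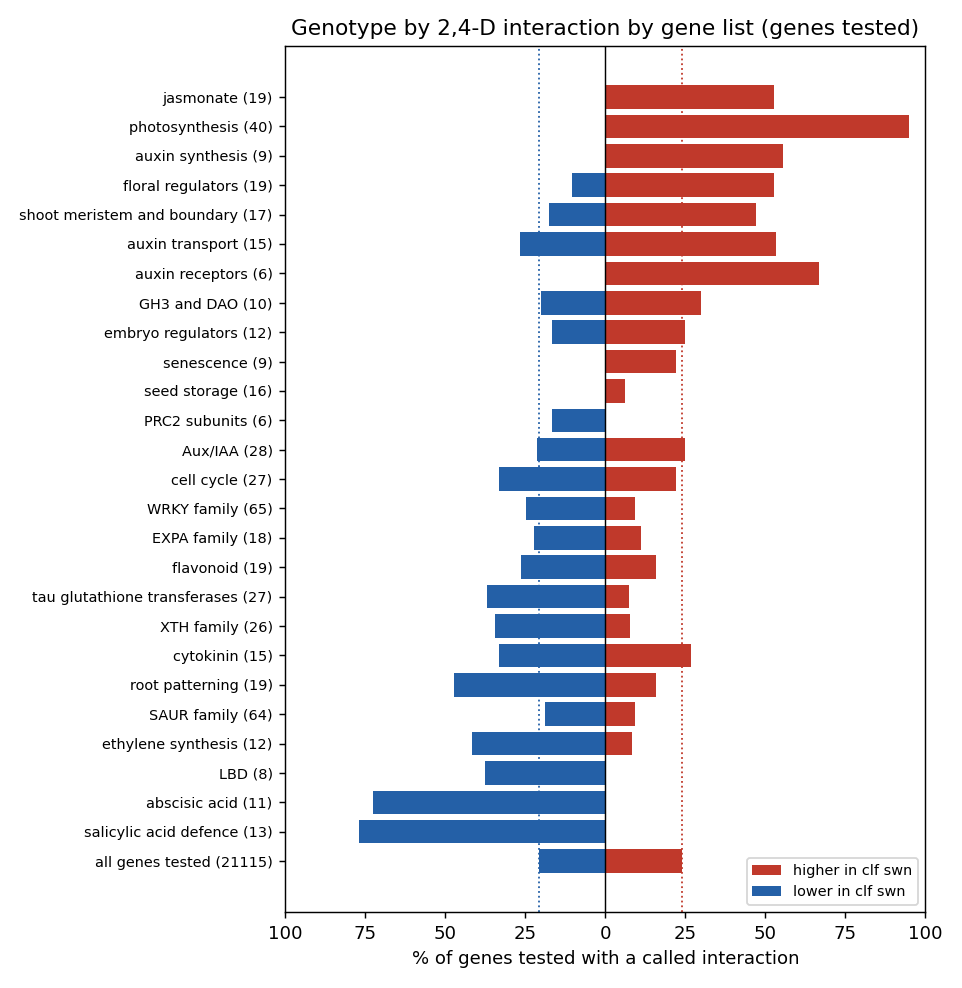
Percentage of the tested genes of each list with a positive (red, to the right) or negative (blue, to the left) interaction, with the number of genes tested in brackets; lists are ordered by their median interaction with levels under the floor set to the floor. Dotted lines mark the 23.9% and 20.8% of all genes; photosynthesis genes stand at 95.0% positive, and salicylic acid defence genes at 76.9% negative.

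Defence genes of the salicylic acid pathway had the highest share of negative interactions among the 29 lists. All 13 genes of the list were up-regulated by 2,4-D in WT and 0 in *cs* with edgeR, where 3 were down-regulated. Of these 13, 10 had a negative interaction and 0 a positive one, with a median of -5.05, or -5.04 with levels under the floor set to the floor. The summed level of the list ran from 140 to 197 CPM in WT-M and from 1765 to 2402 CPM in WT-A, but only from 34.3 to 94.0 CPM in *cs*-M and 21.8 to 28.2 CPM in *cs*-A. *ICS1*, which makes the precursor of salicylic acid, measured 10.1, 9.06 and 10.6 CPM in WT-M and 121, 102 and 73.1 CPM in WT-A. In *cs* it was at 16.8, 13.1 and 12.2 CPM after mock and at 11.9, 7.90 and 9.42 CPM after 2,4-D. It rose 9.91-fold in WT alone (-3.86 ± 0.28, adjusted p = 1.9e-11). The defence regulator *PAD4* rose 11.6-fold in WT and fell 2.24-fold in *cs* (-4.70 ± 0.51, adjusted p = 2e-08).

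*PR2*, a β-1,3-glucanase gene used as a marker of this pathway, reached 632, 692 and 576 CPM in WT-A from 1.24, 1.55 and 8.49 CPM in WT-M. In *cs*-M it measured 0.426, 8.46 and 0.0874 CPM and in *cs*-A 0.877, 1.19 and 1.38 CPM (-8.80 ± 1.27, adjusted p = 2e-06). Its mock level was spread over the replicates, and without *cs*-M replicate 2, the highest of them, the interaction was -5.38 with an adjusted p of 0.1. *PNP-A*, which encodes a small secreted peptide, went from 0.152 ± 0.176 to 178 ± 37.0 CPM in WT and stayed under 1 CPM in all *cs* libraries (-10.02 ± 2.01, adjusted p = 0.00017). Leaving out the same library gave -8.41 with an adjusted p of 0.069, and 6.23% of the 50-base words of its exons occur more than once in the genome. *WRKY51* rose 25.6-fold in WT and stood at 2.14 ± 0.996 and 1.72 ± 0.222 CPM in *cs* (-4.98 ± 0.65, adjusted p = 3.9e-07). In the WRKY family as a whole 16 of 65 genes had a negative and 6 a positive interaction, close to the 20.8% of all genes for the negative ones. *WRKY23*, an auxin-inducible member, rose 21.6-fold in WT and 2.38-fold in *cs* (-3.18 ± 0.26, adjusted p = 1.6e-10), and *WRKY60* rose 3.72-fold in WT and fell 1.97-fold in *cs* (-2.88 ± 0.36, adjusted p = 1.9e-07).

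Of 12 ethylene synthesis genes 8 were up-regulated in WT and 4 in *cs*, against 19.7% and 5.82% of all genes, and 5 had a negative and 1 a positive interaction. The positive call was lost in 9 of the 12 fits without 1 library, and with the replicate block (0 calls). *ACS8*, an enzyme of the committed step, was under the floor in all WT-M libraries and at 204, 199 and 208 CPM in WT-A, at least 1009-fold higher. In *cs* it rose 11.99-fold, from 0.355, 0.575 and 0.874 CPM to 10.1, 5.70 and 5.87 CPM (adjusted p = 3.5e-07). *ACO5* and *ACO1*, which carry out the last step, rose 9.92-fold and 11.9-fold in WT, with log2 changes of -0.06 and -0.11 in *cs* (interactions -3.37 ± 0.37 and -3.68 ± 0.69, adjusted p = 2.4e-08 and 7.5e-05).

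The abscisic acid list pools genes of synthesis (*NCED*), breakdown (*CYP707A*) and response (*RD29A*, *RD29B* and *RAB18*), so its counts do not describe synthesis alone. Of 11 abscisic acid genes 7 were up-regulated in WT and 0 in *cs* with edgeR, and 8 had a negative interaction. *NCED5*, a gene of the rate-limiting enzyme, measured 0.309, 0.111 and 0.207 CPM in WT-M and 87.8, 77.8 and 93.0 CPM in WT-A. In *cs* it lay above WT-M in mock tissue, at 7.82, 5.01 and 2.97 CPM, and overlapped this range after 2,4-D at 3.91, 6.42 and 5.36 CPM (-8.73 ± 0.64, adjusted p = 2.5e-11). *NCED2* rose 10.96-fold in WT and measured 1.47 ± 0.314 and 1.54 ± 0.506 CPM in *cs* (-3.41 ± 0.58, adjusted p = 2e-05). The dehydrin gene *RAB18*, a marker of abscisic acid response, rose from 0.787 ± 0.311 to 62.2 ± 35.3 CPM in WT, but stood at 288 ± 57.5 CPM in *cs*-M and 387 ± 71.9 CPM in *cs*-A (-5.83 ± 0.85, adjusted p = 2.1e-06). *MFT*, a seed gene of the phosphatidylethanolamine-binding family, was also higher in *cs*-M than in WT-M. It measured 0.618, 0.553 and 0.276 CPM in WT-M, 174, 257 and 169 CPM in WT-A, and 68.9 ± 1.07 and 46.3 ± 12.4 CPM in *cs*-M and *cs*-A (-9.26 ± 0.50, adjusted p = 3.1e-13). Other genes overlap 43.7% of its exon bases, so part of these counts may belong to a neighbour.

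**Figure D3:**
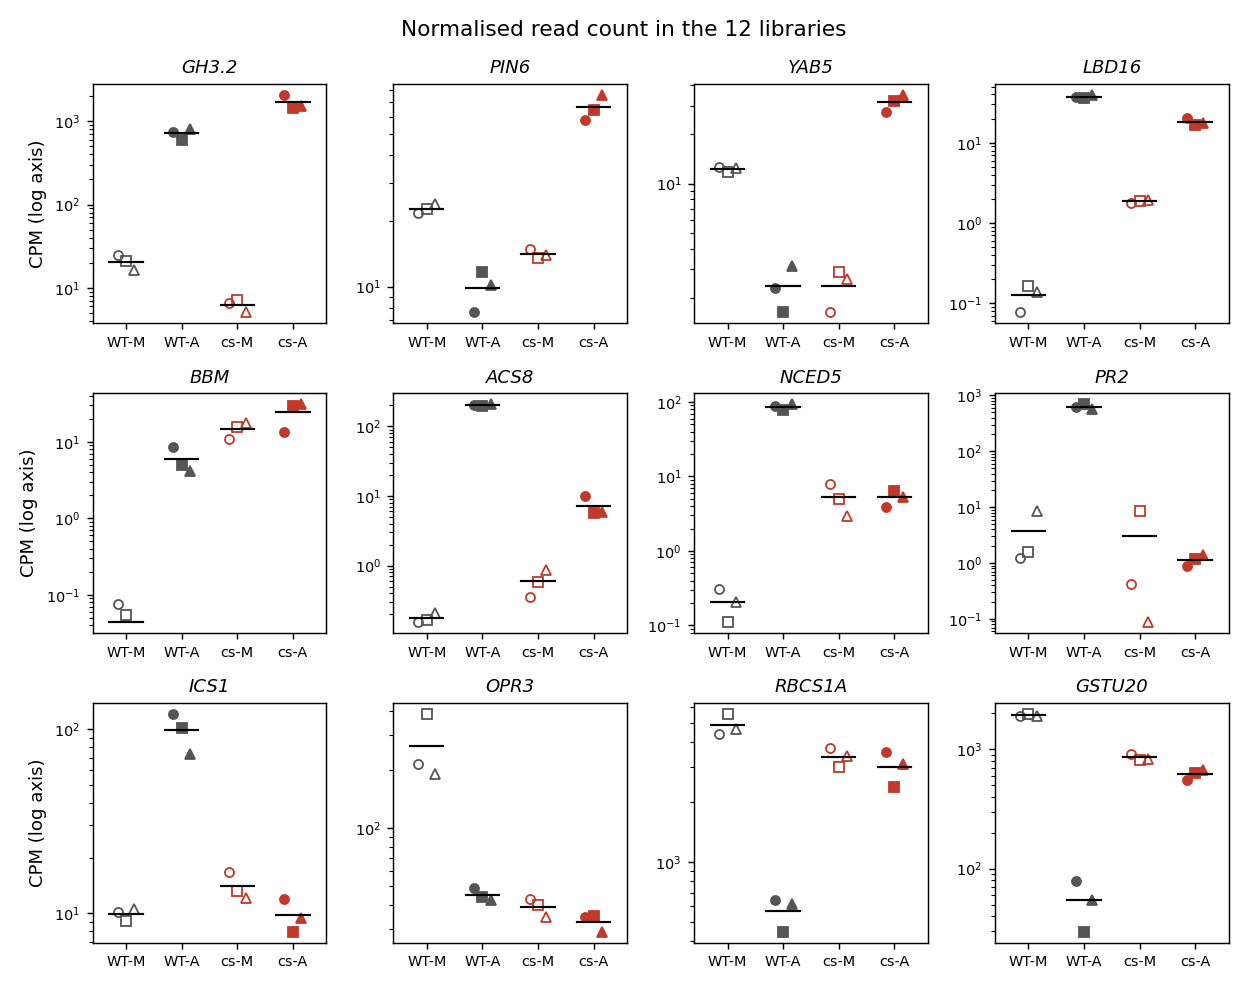
Normalised read count (CPM, log axis, a separate range in each panel) of 12 genes in the 12 libraries; open symbols are mock and filled symbols 2,4-D, grey WT and red *cs*, circle, square and triangle are replicates 1, 2 and 3, and bars are group means. The *BBM* library with 0 counts in WT-M is not drawn. *GH3.2* rises in both genotypes, and *PIN6* and *YAB5* rise in *cs* only. *PR2*, *ICS1*, *NCED5*, *OPR3*, *RBCS1A* and *GSTU20* change more in WT than in *cs*, where *ICS1* and *GSTU20* fall without overlap.

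Photosynthesis genes had the highest share of positive interactions among the lists other than the leaf mesophyll markers, which are drawn from them. Of 40 genes 38 had a positive interaction and 0 a negative one by edgeR's adjusted p, with a median of 1.98. In WT 36 were down-regulated and 0 up-regulated, and in *cs* 4 were down- and 3 up-regulated. Their summed level fell in WT from between 26578 and 31859 CPM to between 5718 and 8453 CPM, while *cs*-M, at 16222 to 18966 CPM, and *cs*-A, at 14289 to 24075 CPM, overlapped. *RBCS1A*, a small subunit gene of Rubisco, measured 4382, 5518 and 4650.2 CPM in WT-M and 643, 446 and 618 CPM in WT-A. In *cs* it stood at 3736, 3012 and 3399 CPM after mock and 3571, 2368 and 3094 CPM after 2,4-D (2.92 ± 0.26, adjusted p = 6.4e-10). The Rubisco activase gene *RCA* fell 8.95-fold in WT and 1.67-fold in *cs* (2.42 ± 0.26, adjusted p = 1.6e-08). The photosystem genes *PSBR*, *PSBP1* and *PSAN* fell 3.95-, 3.84- and 5.20-fold in WT, with interactions of 2.06 ± 0.20, 2.04 ± 0.20 and 2.05 ± 0.24.

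The 5 leaf mesophyll markers all had a positive interaction, with summed levels of 6776 to 7999 CPM in WT-M, 900 to 1332 CPM in WT-A, 4229 to 5159 CPM in *cs*-M and 3405 to 5341 CPM in *cs*-A. The part that leaf tissue left at dissection has in this result was not tested. *CGA1*, a GATA factor of chloroplast development, fell 33.7-fold in WT and measured 7.48 ± 3.38 and 9.61 ± 1.51 CPM in *cs*-M and *cs*-A (5.42 ± 0.52, adjusted p = 2.2e-09). Of 9 senescence genes 2 (22.2%, near the 23.9% of all genes) had a positive interaction, among them *SEN1* (4.90 ± 0.99, adjusted p = 0.00019), which fell 16.96-fold in WT. *PPH*, a phaeophytin hydrolase of chlorophyll breakdown, fell 1.90-fold in WT (0.79 ± 0.16, adjusted p = 0.00014), and *NYC1*, a chlorophyll b reductase gene, had 0.60 ± 0.29 (adjusted p = 0.095).

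Jasmonate genes were repressed in WT, where mock levels differed widely between replicates, and to a lesser degree in *cs*. Their summed level ran from 1740 to 2837 CPM in WT-M and from 374 to 415 CPM in WT-A. In *cs* it fell as well without overlap, from between 374 and 521 CPM after mock to between 138 and 159 CPM after 2,4-D. The median log2 change was -2.84 in WT and -0.72 in *cs*. Of 19 genes 17 were down-regulated in WT and 4 in *cs*, and 10 had a positive interaction, with 0 negative ones by edgeR (2 when fitted to the 12 libraries alone). *OPR3*, an enzyme of jasmonate synthesis, measured 215, 386 and 191 CPM in WT-M and 48.9, 44.3 and 42.6 CPM in WT-A. In *cs* it measured 42.9, 39.9 and 34.7 CPM after mock and 34.6, 35.1 and 29.1 CPM after 2,4-D, all below WT-M and mostly below WT-A (interaction 2.28 ± 0.38, adjusted p = 1.5e-05). *JAZ6*, a repressor that jasmonate induces, was at 399.8, 239 and 78.8 CPM in WT-M and 24.7, 23.5 and 22.4 CPM in WT-A, against 7.10 ± 1.74 and 5.70 ± 0.478 CPM in *cs* (3.01 ± 0.60, adjusted p = 0.00016). *JAZ2* had the same spread in WT-M, 247, 176 and 58.0 CPM, and stood at 23.6 ± 2.94 and 21.9 ± 1.47 CPM in *cs* (2.66 ± 0.46, adjusted p = 2.7e-05). WT-M replicate 3 was the lowest of the 3 mock libraries for each of these genes.

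Among the largest positive interactions, *HMT3* and *FMO GS-OX1* were high in WT-M and low in the other groups. *HMT3*, a homocysteine S-methyltransferase gene, measured 174, 327 and 159.9 CPM in WT-M and 0.762 ± 0.285 CPM in WT-A, and only 4.06 ± 1.17 and 2.78 ± 0.273 CPM in *cs* (7.602 ± 0.78, adjusted p = 6.9e-09). *FMO GS-OX1*, an oxygenase of aliphatic glucosinolates, fell 170.2-fold in WT and 2.57-fold in *cs*, from 2.61 ± 0.643 CPM (6.05 ± 0.70, adjusted p = 5e-08). *MSRB6*, a methionine sulfoxide reductase gene, dropped to 0 counts in WT-A, at least 29.6-fold, and measured 11.2 ± 2.64 and 8.42 ± 2.47 CPM in *cs* (adjusted p = 2.1e-05). Of the remaining genes with the largest positive interactions, *THI2.2*, a thionin gene, fell at least 35.2-fold in WT and rose 1.93-fold in *cs*, and the zinc finger gene AT4G17810 fell at least 10.4-fold in WT. AT5G62360, an invertase and pectin methylesterase inhibitor family gene, fell 8.28-fold in WT and rose 9.33-fold in *cs* (6.27 ± 0.67, adjusted p = 1.4e-08), and *DIN11*, an oxygenase gene, fell 11.1-fold in WT (5.86 ± 1.17, adjusted p = 0.00017).

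The genes with the largest negative interactions included genes under the floor in WT-M. AT2G41800, a DUF642 cell wall protein gene, rose at least 343-fold, AT5G24200, an alpha/beta hydrolase gene, at least 462-fold, and the U-box gene *PUB54* at least 331-fold in WT. In *cs* AT5G24200 and *PUB54* were under the floor in all 6 libraries, and AT2G41800 measured 0.544 ± 0.668 and 0.500 ± 0.263 CPM. The adjusted p was 2.6e-07 for AT2G41800, but rose from 0.00024 to 0.059 for AT5G24200 without *cs*-M replicate 2, and from 0.0071 to 0.062 and 0.064 for *PUB54* without *cs*-M replicates 1 and 2. *NAC061* rose 126-fold in WT to 53.5 ± 2.67 CPM and was under the floor in *cs*-A (adjusted p = 3.8e-09). *ACA13*, a calcium pump gene, rose 88.6-fold in WT and fell 7.74-fold in *cs*, from a *cs*-M level spread over 0.569, 14.6 and 7.69 CPM (-9.42 ± 1.05, adjusted p = 2.6e-08).

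Wall-loosening, detoxification and growth families were mixed. Over all genes 20.8% had a negative and 23.9% a positive interaction. Of 26 *XTH* genes, which remodel xyloglucan, 9 had a negative and 2 a positive interaction, but 1 negative call was left when at least 10 counts were required in every library. *XTH20* rose at least 193-fold in WT to 38.9 ± 18.5 CPM and stayed at 0.551 ± 0.103 and 0.887 ± 0.391 CPM in *cs* (adjusted p = 6e-08), *XTH19* rose 33.1-fold in WT alone (-5.24 ± 0.63, adjusted p = 9.5e-08), and *XTH11* 20.7-fold (-3.41 ± 0.57, adjusted p = 1.5e-05). Of 18 α-expansin genes 4 had a negative interaction (22.2%, near the share of all genes) and 2 a positive one (11.1%). Without *cs*-M replicate 2, WT-A replicate 2 or WT-M replicate 1, 2 negative ones were left. *EXPA1* rose 2.92-fold in WT and measured 18.5 ± 3.53 and 20.5 ± 2.53 CPM in *cs* (-1.41 ± 0.39, adjusted p = 0.0039), while *EXPA5* and *EXPA9* fell in WT (1.37 ± 0.39 and 1.304 ± 0.39, adjusted p = 0.0051 and 0.0071). Of 64 *SAUR* genes, small auxin-up RNAs of cell expansion, 43 were up-regulated in WT and 7 in *cs*, against 19.7% and 5.82% of all genes. A negative interaction was called in 12 (7 without *cs*-A replicate 2), or 18.8%, near the share of all genes. A positive one was called in 6, or 9.4%. *SAUR52* rose 6.08-fold in WT and fell 1.98-fold in *cs* (-3.59 ± 0.39, adjusted p = 2.2e-08), and *SAUR71* and *SAUR66* rose 21.3- and 9.71-fold in WT alone (-4.73 ± 0.57 and -2.88 ± 0.53).

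Of 27 tau glutathione transferases, 10 had a negative and 2 a positive interaction, against 20.8% and 23.9% of all genes. *GSTU20* measured 1905, 1958 and 1885 CPM in WT-M and 79.1, 29.5 and 54.1 CPM in WT-A, but 917, 817 and 833 CPM in *cs*-M and 546, 631 and 673 CPM in *cs*-A (4.67 ± 0.37, adjusted p = 9.7e-11). This 35.7-fold decrease in WT was opposite to *GSTU4*, which rose 14.3-fold in WT and measured 7.28 ± 1.19 and 11.2 ± 1.06 CPM in *cs* (-3.23 ± 0.54, adjusted p = 1.5e-05). *GSTU18* fell 5.83-fold in WT (2.62 ± 0.34, adjusted p = 4.2e-07).

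Of 15 cytokinin genes, type-A response regulators and cytokinin oxidases, 4 had a positive and 5 a negative interaction. These were 26.7% and 33.3%, against 23.9% and 20.8% of all genes. *CKX3*, an oxidase that breaks cytokinin down, rose 24.7-fold in WT and measured 2.57 ± 0.979 and 3.42 ± 0.475 CPM in *cs* (-4.22 ± 0.68, adjusted p = 1e-05). *ARR4* fell 5.46-fold in *cs* alone (-2.18 ± 0.57, adjusted p = 0.0026). *CKX6* rose in both, from below the floor in *cs*, but 91.5% of its exon bases are shared with an antisense gene. The cytokinin counts moved when single libraries were left out, to between 1 and 5 positive and 2 and 5 negative calls over all fits.

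Of 27 cell cycle genes 6 had a positive and 9 a negative interaction (22.2% and 33.3%, against 23.9% and 20.8% of all genes). *CYCD3;2*, a cyclin that drives entry into division, fell 4.02-fold in WT and measured 113 ± 22.7 and 169 ± 17.1 CPM in *cs* (2.57 ± 0.28, adjusted p = 1.9e-08), and the mitotic cyclins *CYCA2;4* and *CYCA2;3* had interactions of 1.17 ± 0.14 and 1.15 ± 0.14. Of 19 flavonoid genes 12 were down-regulated in WT and 11 in *cs*, against 20.7% and 6.35% of all genes. Their summed level ran from 222 to 461 CPM in WT-M and from 85.0 to 86.5 CPM in WT-A. In *cs* it ran from 727 to 758 CPM after mock and from 311 to 536 CPM after 2,4-D. A positive interaction was called in 3 and a negative one in 5 (15.8% and 26.3%). The flavonol regulators went opposite ways, *MYB111* falling at least 14.4-fold and *MYB11* rising at least 23.8-fold in WT, while *cs* held 5.29 ± 0.689 and 3.79 ± 1.03 CPM of the first and 6.82 ± 1.26 and 11.97 ± 3.61 CPM of the second. *UGT78D1*, a flavonol glycosyltransferase gene, fell 7.10-fold in WT and 1.54-fold in *cs* (2.21 ± 0.26, adjusted p = 5.9e-08). Of 6 PRC2 subunit genes tested, *VRN2* alone passed, with a small interaction of -0.29 ± 0.11 (adjusted p = 0.028) that did not pass with unscaled library totals (-0.27, adjusted p = 0.055), with the groups of the contrast alone (0.051) or in 7 of the fits without 1 library (up to 0.094), *MSI1* had -0.34 ± 0.15 (adjusted p = 0.065), and *CLF* itself 0.15 ± 0.23 (adjusted p = 0.66).

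Among the marker lists, 3 of 5 shoot meristem genes had a positive and 1 a negative interaction, the latter *KNAT1* (-0.76 ± 0.21, adjusted p = 0.0039), which rose 1.64-fold in WT. Of 9 root markers 2 had a negative and 1 a positive interaction (no defining marker was at 0 in all 12 libraries), and their summed level, nearly all from the β-glucosidase gene *BGLU23*, was 981 to 1167 CPM in WT-M, 499.99 to 834 CPM in WT-A, 476 to 784 CPM in *cs*-M and 158 to 241 CPM in *cs*-A. The root hair regulator *RHD6* rose in WT at least 122-fold to 24.5 ± 3.497 CPM, and was under the floor in *cs*-M and at 0.394 ± 0.0284 CPM in *cs*-A (adjusted p = 2e-06). *BGLU23* itself fell in both (-0.89 ± 0.36, adjusted p = 0.044), a call lost in 8 fits without 1 library.

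The same interaction was measured in wounded explants from 12 other libraries, which enter the model but not the contrast above. There 3587 genes had a positive and 2763 a negative interaction, 30.1% of the genes tested (4340 and 1774 with unscaled library totals, which shift the median of all genes to 0.12). Of the 5054 genes positive in intact seedlings 86.5% had the same sign in wounded ones and 49.6% were called in the same direction, against the 17% of all genes called positive. Of the 4398 negative genes 85.9% had the same sign and 41.2% were called negative, against 13.1% of all genes. The median interaction of these genes was 1.02 intact and 0.55 wounded on the positive side, and -0.98 and -0.44 on the negative side. The genes were chosen by their call in intact tissue, so the intact values are larger by selection. The difference between both tissues itself was called in 949 genes with a higher and 903 with a lower value in wounded tissue (4.49% and 4.28%, together 8.77% of genes), or 1226 and 537 with unscaled library totals. In wounded tissue 38 of the 40 photosynthesis genes were again positive and 10 of the 13 salicylic acid genes again negative. The abscisic acid genes had 2 negative and 2 positive calls there and a median of 0.69, beside -2.83 in intact seedlings. Most lists kept the sign of their median, but others changed it as well. Among these were the flavonoid (-0.61 intact, 1.94 wounded), cytokinin (-0.64 and 1.68) and *XTH* (-0.75 and 0.63) lists.

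**Figure D4:**
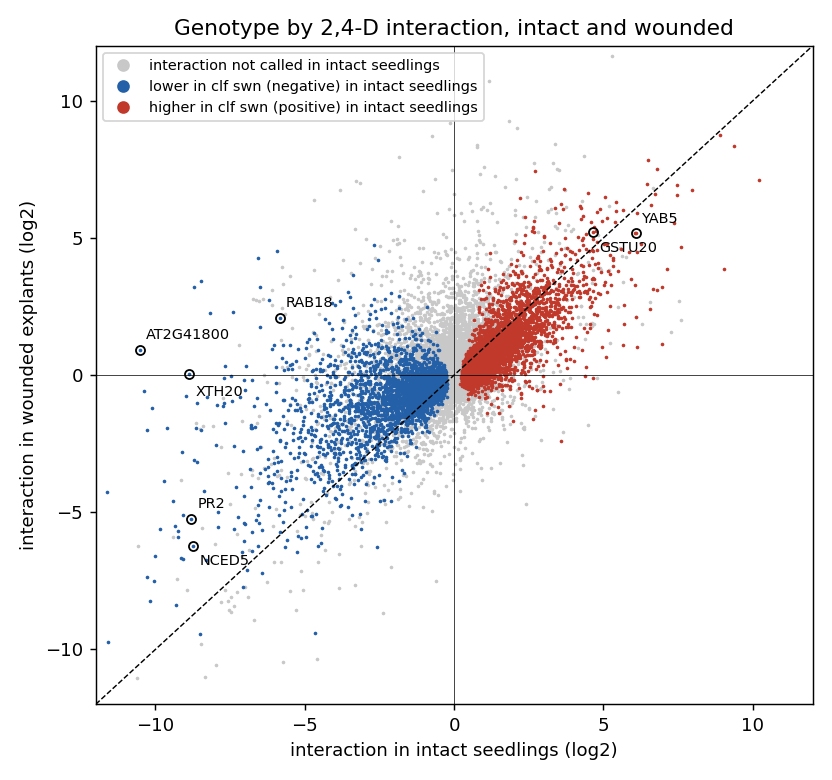
Genotype by 2,4-D interaction (log2) of each gene in intact seedlings (x axis) and in wounded explants (y axis), with 1 point per gene, coloured by the call in intact seedlings; the dashed line marks equal size. *YAB5*, *GSTU20*, *PR2* and *NCED5* keep their sign in wounded tissue, while AT2G41800 and *XTH20* lie near 0 and *RAB18* above 0 on the y axis.

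Before any treatment, in libraries that enter the model but not the contrast of the interaction, 2865 genes were higher and 4304 lower in *cs* than in WT, 34.0% of genes. Of the genes with a negative interaction 21.8% were higher in untreated *cs*, against 13.6% of all genes, and 14.3% were lower, against 20.4%. Of those with a positive interaction 8.09% were higher and 23.4% lower. The median untreated difference was 0.18 for negative and -0.14 for positive interactions, on the log2 scale.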

How the data were processed

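RNA was sequenced from 35 libraries made with a kit that does not mark strand. Per the study's methods and the submitters' processing notes, reads were trimmed with Trimmomatic 0.32, aligned to TAIR10 with TopHat2 2.0.10, keeping unique alignments, and counted with HTSeq, and the authors deposited these raw counts for 28775 genes. All columns were matched to samples by name, and 0 columns were unused. Near-identical copies, overlapping genes and antisense genes may share or lose reads.

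Counts were analysed with edgeR 4.0.16 in R 4.3.3 (filterByExpr, TMM, quasi-likelihood F test, Benjamini-Hochberg adjustment over 21115 genes) in 1 model of the 10 groups. An interaction was called at an adjusted p under 0.05, a response also required a log2 fold change of at least 0.6. Standard errors came from the fold change and F. Lists and members were chosen with earlier results of these data known. The genes named are the 10 with the largest interaction in each direction at a mean of at least 5 CPM, the 3 with the smallest adjusted p in each of the 29 lists, and *CLF* and *SWN*. *STM*, *CUC3*, *CLV3*, *COBL9*, *EXPA7* and *PIN2*, members of the marker lists, were named after their values were seen. A group with at most 3 counts in every library was under the floor, and folds against it are lower bounds computed with 3 counts per library. The 12 libraries held 11436071 to 18094983 counts (median 14281559). The p-values measure the spread between libraries of the same group, estimated over all 35 libraries. The untreated groups pool 2 sets of libraries, so a difference between these sets enters that spread. The 11 untreated libraries, 5 of WT and 6 of *cs*, came in a pair of sets that share replicate numbers, and were fitted as independent although libraries of a number share an occasion, so their p-values may be too small. Promoter windows and exon overlaps came from RefSeq TAIR10.1, where 28009 of 28775 gene IDs matched.

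Per the methods each of the 3 replicates was grown on its own occasion and sequenced together in a lane, so the number marks a batch. Same-numbered libraries of different groups deviated together by -0.04 to 0.24 (median correlation 0.08 over 18 pairs, against -0.05 over 36 pairs of other numbers). The number was left out of the main model and used as a block in an alternative. Other alternatives were RLE and unscaled totals, DESeq2 1.42.0, other filters, other call rules, the groups of the contrast alone, and each library left out. The procedure was tested on simulated data.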

Additional observations from a re-analysis of the deposited data

Results flagged for a closer look

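The response to 2,4-D differed between the genotypes by the interaction test in 5054 genes with a positive and 4398 genes with a negative difference. The interaction in turn differed between wounded explants and intact seedlings in 949 genes with a higher and 903 genes with a lower value in wounded tissue, 8.77% of the genes tested (1226 and 537 with unscaled library totals). This second comparison was added after the data were seen. Among the genes named, AT2G41800 had an interaction of 0.90 ± 0.68 in wounded tissue, where WT rose from 11.9 to 120.04 CPM and *cs* from 0.393 to 8.20 CPM, and the difference from intact tissue had an adjusted p of 2.1e-05 in edgeR's test. *XTH20* had 0.04 ± 0.42 in wounded tissue (adjusted p of the difference 1.7e-05). *RAB18* changed sign, with 2.07 ± 0.71 in wounded tissue, where WT fell from 26.6 to 7.15 CPM and *cs* measured 149.6 and 182 CPM (adjusted p of the difference 5.2e-05). *ACO5* had -0.43 ± 0.34 (0.00051) and *TIR1* -0.09 ± 0.19 (0.0076).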

How the results depend on the processing

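None of the 97 called interactions of named genes changed direction in those of the 21 alternative fits that tested the gene. *CLF*, which was not called, turned from 0.15 to -0.04 without *cs*-M replicate 1. Named genes with a library under 10 counts, such as *LBD16*, *BBM*, *ACS8* and *PR2*, went untested under the strictest count threshold. A gene left out in this way was not counted as a lost call. Of the 97 genes, 11 lost the call in at least 1 alternative that tested them, 2 of them outside the fits without 1 library and the fold minimum. The replicate block gave 5191 positive and 4565 negative interactions and changed no call of a named gene except those of *NYC1* and *MSI1*, which passed. Without 1 library the interaction counts ran from 4572 to 4962 and from 3911 to 4253, and the slope from 0.173 to 0.208. With at least 10 counts in every library, which tests 16372 genes, WT had 2598 up-regulated genes, the untreated comparison 1563 higher and 2404 lower genes, and the slope was 0.168. Under this filter, with fewer genes tested, negative calls fell to 5 in the salicylic acid, 3 in the abscisic acid, 8 in the WRKY, 5 in the root patterning, 6 in the tau glutathione transferase, 1 in the shoot meristem and boundary, 1 in the embryo and 0 in the flavonoid list by edgeR, and positive calls to 4 in the floral, 3 in the shoot meristem and boundary, 4 in the *Aux/IAA*, 2 in the auxin synthesis and 1 in the embryo list. Over genes called in *cs* the slope was 0.467. By adjusted p alone WT had 6293 up-regulated genes, *cs* 2450 and 2482, and the untreated comparison 6240 and 6528. In wounded tissue the negative calls were 1774 with unscaled totals, 1618 with a log2 minimum of 0.6, 1617 with the groups of the contrast alone and 1764 with these and the replicate block. The cause of these changes was not tested beyond the fewer genes or samples. The difference between wounded and intact tissue had 537 negative calls with unscaled totals, and without 1 library 723 to 1137 positive and 530 to 1178 negative ones, the lowest without *cs*-WA replicate 2.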
